A study of Danio rerio and Aquarana catesbeiana with 12 samples.

Results

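The retinal pigment epithelium (RPE) of the American bullfrog (Aquarana catesbeiana) was compared between its dorsal and its ventral region, over every assembled contig in the bullfrog count table. The table holds 25115 contigs, of 43430 features in the bullfrog and zebrafish tables of the series together. It covers 6 of the 12 libraries, 3 labelled dorsal and 3 labelled ventral. All 6 came from dissected RPE with no treatment given in the labels, with RNA extracted by phenol and chloroform, treated with DNase, depleted of ribosomal RNA and sequenced in 1 lane. The other 6 libraries are zebrafish RPE after thyroid hormone or vehicle and were not used here. The labels give no age or sex for the frogs and do not say how many animals were used, nor whether a dorsal and a ventral library of 1 number shared an eye. The p-values therefore measure no more than the spread between these 6 libraries, which may be technical.

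The RPE is a pigmented single-layered epithelium behind the photoreceptors. It stores vitamin A as retinyl esters, turns all-trans retinoids back into the 11-cis form, and takes up shed outer segment tips. In the bullfrog eye the dorsal retina is known for visual pigments built on vitamin A2 and the ventral retina for pigments built on vitamin A1, so that 1 tissue of the same animal carries both chromophores. A2 differs from A1 by an extra ring double bond and shifts a pigment's absorption to longer wavelengths. The series asks which enzyme makes A2 from A1, and the dorsal-ventral difference of the bullfrog RPE is 1 of its sources.

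The contigs carry assembly names and no gene names. A name such as comp19903_c0_seq1|m.10646 gives the component (comp19903_c0, a cluster of overlapping assembled sequences), the transcript form in it (seq1) and the reading frame on that form (m.10646). The 25115 contigs lie on 23803 transcripts in 22031 components, and 2108 components hold 2 or more contigs. All lengths are multiples of 3, from 297 to 22437 bases with a median of 615, so they are coding lengths. With no gene names, the tissue label could not be checked against RPE, photoreceptor or choroid markers, and no function is given to any contig. In bulk tissue, fewer cells of a type and less RNA per cell cannot be told apart.

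Library totals ran from 8589212 to 12000358 counts, and 3 counts were worth 0.25 to 0.349 CPM (counts relative to the library total). Across log2 CPM of all contigs, the first principal component held 51.4% of the variance and separated the dorsal from the ventral libraries. Pearson's r ran from 0.964 to 0.976 within regions and from 0.926 to 0.956 between them, which describes contigs and carries no test. Dorsal 2 and ventral 3 lay nearest to the other region on that component. Every contig reached 1 CPM, taken on the unscaled library totals, in at least 3 libraries, so contigs below that level are outside this comparison. The CPM values of contigs given below are scaled further, which lowers ventral and raises dorsal values, so some can fall just under that level.

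Dorsal and ventral RPE differed in similar numbers of contigs each way, but the contigs higher in dorsal RPE were abundant and moved little, while those higher in ventral RPE were near the level of all contigs and moved more. With edgeR's quasi-likelihood test at a Benjamini-Hochberg adjusted p under 0.05, 2801 contigs were called, 11.2% of those tested. Of these, 1448 (5.77%) were higher in dorsal and 1353 (5.39%) higher in ventral RPE. The median dorsal call differed 1.66-fold (log2 fold change 0.73) at a mean of 26.8 CPM. The median ventral call differed 2.55-fold (log2 fold change -1.35) at a mean of 6.89 CPM, near the 5.71 CPM of all contigs. Per coding length the medians were 32.8 and 8.34 RPKM (CPM per kilobase of coding length) in the dorsal and ventral calls, with median coding lengths of 717 and 801 bases. All 1448 dorsal calls and 1327 of the 1353 ventral calls (98.1%) had dorsal and ventral libraries that did not overlap. The call and the lack of overlap rest on the same libraries, so this adds no support to the calls. For contigs below 1 CPM in all libraries of 1 region, it was fixed by the level needed to enter the table. Without any test, 4056 contigs (16.1%) had every dorsal library above every ventral one and 3712 (14.8%) the reverse.

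**Figure D1:**
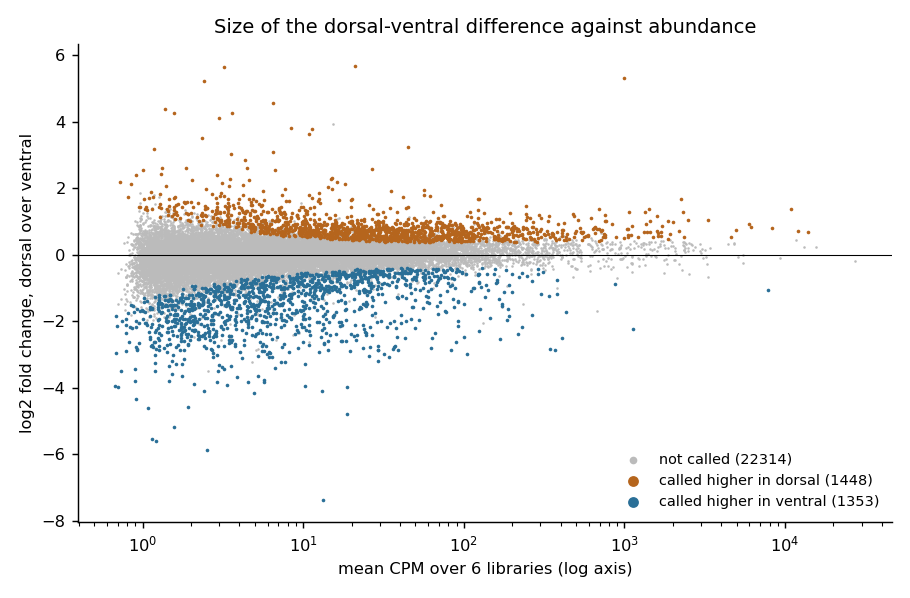
Each point is a contig, with its mean CPM over the 6 libraries on a log axis and its fitted log2 fold change, dorsal over ventral, on the other axis. Calls higher in dorsal RPE (1448, brown) crowd near the zero line at high abundance, and calls higher in ventral RPE (1353, blue) spread downward at low abundance, with 1 dorsal contig near 1000 CPM well above the other contigs of 100 CPM or more.

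The balance between the sides depended on the scaling and the counts on single libraries. The trimmed mean of M-values (TMM) factors were 0.918 to 0.967 in dorsal and 1.053 to 1.068 in ventral libraries. Scaling by total count alone moved the median log2 fold change of all contigs from -0.01 to -0.18, and then 758 contigs were called higher in dorsal and 2456 in ventral RPE, a dorsal share of 23.6% against 51.7%. The directions below are relative to TMM scaling. The count of calls fell from 2801 to 1133 without dorsal 1, to 1863 without dorsal 3, to 1732 without ventral 1 and to 991 without ventral 2. Dorsal calls fell to 669 without dorsal 1, 865 without dorsal 2, 814 without ventral 1 and 500 without ventral 2. Ventral calls fell to 464 without dorsal 1, 851 without dorsal 3 and 491 without ventral 2. In each of these fits, no contig shared with the full set of calls changed direction. The fits reuse the same libraries and only contigs called in both were compared, so a change of direction could hardly occur.

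Large differences lay mostly on the ventral side. Called contigs at least 2-fold apart numbered 338 (1.35%) higher in dorsal and 899 (3.58%) higher in ventral RPE. These became 208 and 1328 with total-count scaling. Without ventral 2 they were 195 and 409, and the ventral count was 392 without dorsal 1 and 583 without dorsal 3. A mean under 10 CPM was found in 220 of the 338 dorsal and 661 of the 899 ventral contigs, against 15835 of all 25115 contigs. Among the 1302 contigs at 100 CPM or more, the sides were closer, with 40 dorsal and 31 ventral. At 4-fold and above in that abundant class there was 1 dorsal contig against 10 ventral ones. Over all contigs the log2 fold change ran from -2.25 at the 1st percentile to 1.18 at the 99th percentile.

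That 1 abundant dorsal contig was comp19903_c0_seq1|m.10646, with a reading frame of 1614 bases (538 codons). It stood at 2112, 2013 and 1654 CPM in dorsal 1, 2 and 3 and at 72.1, 49.4 and 22.6 CPM in ventral 1, 2 and 3. All 3 dorsal libraries were far above all 3 ventral ones, and the lowest dorsal value was 22.9 times the highest ventral value. Dorsal libraries averaged 1926 ± 241 CPM and ventral libraries 48.0 ± 24.8 CPM (SD, n = 3 each), a log2 fold change of 5.32 (SE 0.38) or 40.0-fold, with an adjusted p of 0.000206 in edgeR's quasi-likelihood test. Per coding length it reached 1194 RPKM in dorsal and 29.7 RPKM in ventral RPE. It was called under all 11 alternatives that could change it, with a log2 fold change from 4.98 to 5.74.

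The contigs with the strongest evidence on the dorsal side were otherwise of modest level. The 10 smallest p-values on that side belonged to contigs 2.81-fold to 40.0-fold higher in dorsal RPE, with adjusted p from 7.07e-05 to 0.000524 (edgeR quasi-likelihood). They were taken from calls whose libraries do not overlap, and the nearest dorsal and ventral libraries were at least 2.4-fold apart. The calls of all 10, and of the 10 on the ventral side, held under each alternative tried.

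The smallest dorsal p-value was that of comp18080_c0_seq1|m.8975 (371 codons), whose dorsal libraries varied by an SD of only 1.65 CPM around 45.7 CPM. Its ventral mean was 7.7 ± 1.22 CPM. Contig comp24519_c0_seq1|m.17452 (202 codons) was at 25.6, 31.6 and 31.1 CPM in dorsal and at 6.87, 6.76 and 6.47 CPM in ventral libraries. Its ventral libraries were almost level. The log2 fold change was 2.13 (SE 0.14), with an adjusted p of 0.00014 (edgeR quasi-likelihood, n = 3 each). The longest of the group, comp24550_c0_seq1|m.17471 (812 codons), was at 188, 203 and 179 CPM in dorsal and 63.2, 63.5 and 49.8 CPM in ventral libraries. Its nearest libraries were 2.81-fold apart, with a log2 fold change of 1.69 (SE 0.13) and an adjusted p of 0.000266 (edgeR quasi-likelihood).

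The other dorsal contigs of that group ranged from 105 CPM down to 7.64 CPM in dorsal RPE. Contig comp23736_c0_seq1|m.16837 (361 codons) stood at 105 ± 7.43 against 37.6 ± 2.56 CPM, and comp6902_c0_seq1|m.2693 (436 codons) at 88.2 ± 5.23 against 25.4 ± 4.25 CPM. Contigs comp27684_c0_seq1|m.19282 and comp44319_c0_seq1|m.26440, from different components, both had 217 codons. The first stood at 24.5 ± 3.78 against 5.07 ± 0.54 CPM and the second at 11.7 ± 1.93 against 1.35 ± 0.528 CPM (SD, n = 3 each). The lowest was comp6123_c0_seq1|m.2032 (159 codons), at 7.64 ± 1.04 against 1.24 ± 0.0887 CPM. In the last, comp45621_c0_seq1|m.26889 (369 codons), 341 dorsal and 18 ventral counts gave a ratio of 24.6 after scaling for library size, with an exact 95% interval of 15.3 to 42.0 for counting error alone. This contig was below 1 CPM in every ventral library, so only its dorsal libraries could bring it into the table. That its libraries do not overlap was thus fixed in advance.

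On the ventral side the 10 smallest p-values covered contigs 2.53-fold to 27.5-fold higher in ventral RPE, with adjusted p from 7.07e-05 to 0.000842 (edgeR quasi-likelihood). These too were taken from calls whose libraries do not overlap, and their nearest libraries were 2.04-fold to 16.9-fold apart. The most abundant was comp22569_c0_seq1|m.15654 (560 codons), at 200, 218 and 184 CPM in dorsal and 630, 611 and 759 CPM in ventral libraries. Its log2 fold change was -1.73 (SE 0.14), with an adjusted p of 0.000266 in edgeR's quasi-likelihood test (n = 3 each). The smallest difference was that of comp23362_c0_seq1|m.16521 (744 codons), at 93.7 ± 9.67 CPM in dorsal and 237 ± 19.8 CPM in ventral RPE. Its libraries ran from 88.0 to 105 CPM in dorsal and from 214 to 249 CPM in ventral RPE.

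Dorsal levels of the other ventral contigs were low to moderate. Contig comp15815_c0_seq1|m.7160 (131 codons) had 14 counts over the 3 dorsal and 332 over the 3 ventral libraries, a scaled ratio of 18.3 with an exact 95% counting interval of 10.7 to 33.8. It was below 1 CPM in every dorsal library, so only its ventral libraries could bring it into the table and its lack of overlap was fixed in advance. The widest gap belonged to comp24532_c0_seq1|m.17463 (303 codons), whose nearest libraries were 16.9-fold apart. It averaged 1.28 ± 0.599 CPM in dorsal and 36.4 ± 4.76 CPM in ventral RPE. Contig comp35969_c0_seq1|m.23328 (433 codons) was steady in dorsal RPE, at 3.49, 3.8 and 3.55 CPM, and stood at 19.6, 23.1 and 27.7 CPM in ventral RPE. Contig comp36284_c0_seq1|m.23474 (468 codons) stood at 3.49 ± 0.997 against 18.7 ± 2.62 CPM and comp27420_c0_seq1|m.19132 (208 codons) at 4.54 ± 0.89 against 21.7 ± 2.13 CPM. Contig comp23010_c0_seq1|m.16163 (182 codons) stood at 7.07 ± 0.464 against 51.8 ± 10.9 CPM. The last of the 10 smallest ventral p-values belong to comp19478_c0_seq3|m.10089 and comp22045_c0_seq1|m.14395, whose components are described with the unequal responses.

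**Figure D2:**
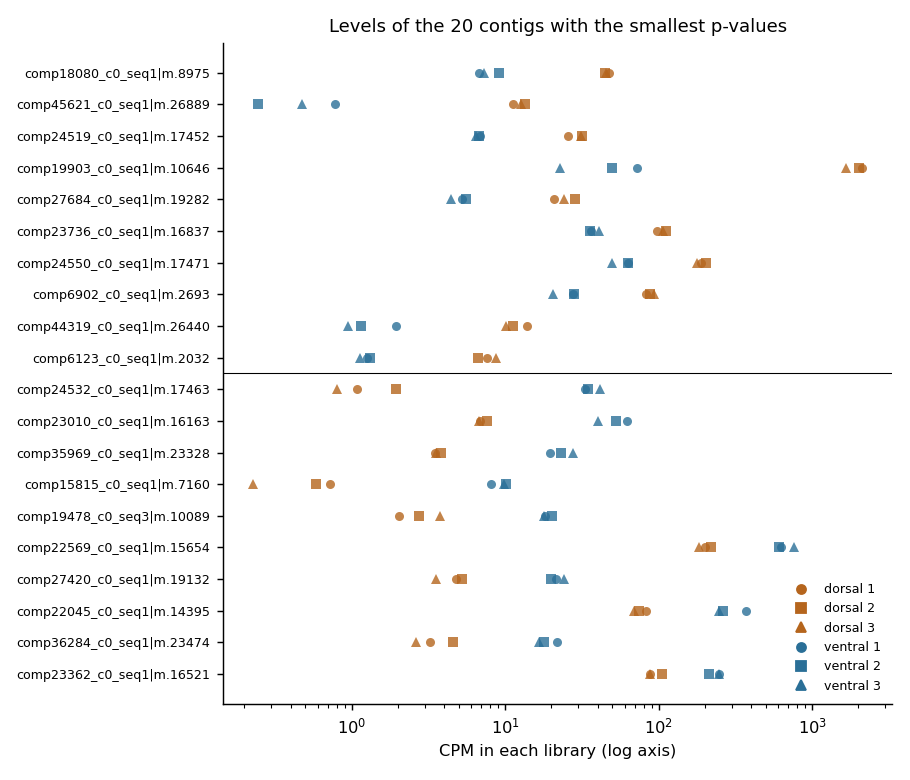
Points give the CPM of each library on a log axis for the 10 contigs with the smallest p-value on the dorsal side (top) and on the ventral side (bottom), brown for dorsal and blue for ventral, with a marker shape per library number. Contigs were chosen among calls whose libraries do not overlap, so the colours stay apart by choice, and comp19903_c0_seq1|m.10646 has both the highest level and the widest gap among those higher in dorsal RPE.

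The largest fitted differences belonged mainly to contigs that were nearly absent from 1 region. Dorsal contig comp15221_c0_seq2|m.6833 (112 codons) had 70, 28 and 67 dorsal counts and 1, 2 and 1 ventral counts, a scaled ratio of 53.6 (exact 95% counting interval 20.5 to 199). Dorsal contig comp60867_c0_seq1|m.31407 (164 codons) had 123 counts in dorsal and 4 in ventral RPE, a ratio of 39.9 (interval 15.2 to 149). Both were high in all 3 dorsal libraries, with dorsal 2 the lowest. Ventral contigs with 1 or 2 dorsal counts in all were comp39756_c0_seq1|m.24781, comp72453_c0_seq1|m.34196, comp80837_c0_seq1|m.35776 and comp72586_c0_seq1|m.34223. Their ventral counts were 171, 82, 81 and 109, and their scaled ratios were 65.8 (interval 17.9 to 548), 63.1 (11 to 2520), 62.4 (10.9 to 2490) and 42.0 (11.3 to 351). The width of these intervals follows from the few dorsal counts. All 4 had every ventral library above every dorsal one, but this was fixed in advance. The table holds only contigs at 1 CPM or more in at least 3 libraries, and these were below that level in dorsal RPE. The same holds, with the regions exchanged, for both dorsal contigs above.

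The largest fitted value on each side rested on few libraries. Contig comp9891_c0_seq1|m.4668 (374 codons) stood at 3.37, 4.0 and 117 CPM in dorsal and 1.4, 0.247 and 0.666 CPM in ventral libraries. Dorsal 3 was about the whole of the dorsal signal, although the other 2 dorsal libraries were also above all ventral ones. The log2 fold change was 5.69 (SE 1.44) with an adjusted p of 0.0321 in edgeR's quasi-likelihood test, and 2.22 without dorsal 3. Its adjusted p ran from 0.00608 to 0.125 over the alternatives, and the call was lost without ventral 1, without ventral 2 and without ventral 3. On the other side, comp3555_c0_seq1|m.418 (338 codons) had 0, 2 and 2 dorsal counts and 438, 534 and 10 ventral counts. Ventral 1 and ventral 2 held nearly all of it and ventral 3 was close to the dorsal libraries. Its dorsal libraries were all below 1 CPM, so it entered the table through its ventral libraries alone and their separation was fixed in advance. The scaled ratio was 189 (exact 95% counting interval 73.6 to 695) and the adjusted p 0.0112, from 1.66e-05 to 0.058 over the alternatives, with the call lost without dorsal 1 and without dorsal 3 (edgeR quasi-likelihood).

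Single-library signals of this kind were few, but the table holds only contigs at 1 CPM or more in at least 3 libraries. Contigs seen in fewer libraries are outside it, so how common such signals are was not measured. In 39 of the 25115 contigs 1 library held over 50% of the summed CPM of the 6. Of these 20 were called, against 11.2% of all contigs. A contig nearly absent from 1 region passes that level more readily, so the measure and the call are not independent. One such contig is comp60867_c0_seq1|m.31407, at 7.34, 1.85 and 4.92 CPM in dorsal 1, 2 and 3, so not all of the 39 rest on 1 library. Ventral 1 held 21 of them (4 called) and dorsal 3 held 8 (8 called).

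The share of contigs called and the side they fell on both followed abundance. Contigs were split into 5 abundance classes of 5023 by mean CPM, with median levels of 1.42, 2.77, 5.71, 13.7 and 52.5 CPM. The share called rose from 5.5% in the lowest class through 6.5, 9.3 and 13.1% to 21.3% in the highest. The median SD over the 3 dorsal libraries fell from 0.40 to 0.14 log2 CPM between the same classes, and its part in the share called was not tested. In the lowest class 55 contigs were called higher in dorsal and 223 higher in ventral RPE, and all 278 were at least 2-fold apart. In the highest class the numbers were 763 and 306, so the dorsal share of the calls went from 19.8% to 71.4%. Ventral calls were spread almost evenly over the classes, at 223, 244, 276, 304 and 306, while dorsal calls rose from 55 through 84, 192 and 354 to 763. The median log2 fold change of all contigs of a class, called or not, went from -0.14 to 0.09. Under total-count scaling these medians were -0.31 and -0.08, with 36 dorsal and 364 ventral calls in the lowest class and 407 and 611 in the highest. That scaling shifts all contigs nearly alike, so it leaves the order of the classes as it was and does not test it. Ranked per coding length instead, the highest class had 902 dorsal and 241 ventral calls and the lowest 57 and 261. Contigs enter the table only at 1 CPM or more in at least 3 libraries, and the lowest class by mean CPM ran from 0.677 to 2.0 CPM. Some of its contigs could therefore enter only through the region where they are higher. On the TMM-scaled values that cut-off stood lower for ventral than for dorsal libraries. Its part in the sides and medians of the classes was not tested.

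The 500 most abundant contigs together held a larger share of the counts in dorsal libraries, while the first of them by itself held a larger share in ventral ones. The first contig took 2.43, 2.4 and 2.39% of the counts in dorsal 1, 2 and 3 and 3.09, 2.9 and 3.32% in ventral 1, 2 and 3, without overlap (two-sided exact permutation p = 0.1). The 500 most abundant contigs took 58.7, 59.1 and 60.4% of the counts in dorsal and 55.7, 55.5 and 56.6% in ventral libraries. All 3 dorsal libraries were above all 3 ventral ones (59.4% ± 0.875 against 56.0% ± 0.598, SD, n = 3 each, two-sided exact permutation p = 0.1, the smallest that 3 against 3 allows). To reach 50% of a library's counts took 254, 247 and 219 contigs in dorsal and 313, 318 and 294 in ventral libraries, again without overlap (exact permutation p = 0.1). For the 10 most abundant contigs the shares overlapped, at 13.5, 13.1 and 13.8% against 12.6, 11.3 and 13.5% (exact permutation p = 0.2). The 2 lowest abundance classes took 1.92% ± 0.0409 of dorsal and 2.37% ± 0.0458 of ventral counts. As a description of the calls, the contigs called higher in dorsal RPE made up 26.1% ± 0.542 of dorsal and 16.9% ± 1.17 of ventral counts, and those called higher in ventral RPE 2.31% ± 0.236 and 5.74% ± 0.785.

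The 10 most abundant contigs held several sizeable regional differences. The first by CPM, comp22199_c0_seq1|m.15186 (707 codons), took 2.76% of all counts. It stood at 25138, 25440 and 26028 CPM in dorsal and 28902, 27327 and 31577 CPM in ventral libraries. The groups did not overlap but the difference was small and was not called, at a log2 fold change of -0.20 (95% interval -0.53 to 0.14). Contigs comp22205_c0_seq1|m.15199, comp22198_c0_seq1|m.15183 and comp19834_c0_seq1|m.10566 were not called either, with log2 fold changes of 0.22 (95% interval -0.10 to 0.53), 0.23 (-0.12 to 0.59) and -0.10 (-0.41 to 0.21).

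Contig comp19840_c1_seq1|m.10579, with a reading frame of 411 bases (137 codons), had the largest difference of the 10 and the highest level per coding length in the table. It stood at 34412, 41243 and 39055 RPKM in dorsal and 13499, 13085 and 17497 RPKM in ventral libraries. The lowest dorsal library was 1.97 times the highest ventral one. The log2 fold change was 1.38 (SE 0.17) with an adjusted p of 0.00199 (edgeR quasi-likelihood, n = 3 each). Contig comp22200_c0_seq1|m.15188 (177 codons), the next by level per length, was at 20091, 17290 and 21983 RPKM in dorsal and 11686, 10374 and 11632 RPKM in ventral libraries. It was higher in every dorsal library, with a log2 fold change of 0.82 (SE 0.15) and an adjusted p of 0.00911 (edgeR quasi-likelihood).

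The opposite direction was seen in comp22204_c0_seq1|m.15197 (689 codons), at 5263, 4736 and 5202 CPM in dorsal and 12619, 7375 and 11418 CPM in ventral libraries. Its dorsal libraries were close together, and ventral 2 was the lowest of the ventral ones but above all dorsal ones. The log2 fold change was -1.05 (SE 0.20) with an adjusted p of 0.0106 (edgeR quasi-likelihood). Nearer to the threshold were the calls of comp22194_c0_seq1|m.15178 (log2 fold change 0.70, SE 0.19, adjusted p 0.0447) and comp19839_c0_seq1|m.10576 (0.72, SE 0.16, adjusted p 0.0223), both by edgeR's quasi-likelihood test. The first call was lost with total-count scaling and without each library but ventral 3, with adjusted p from 0.00198 to 0.166 over the alternatives. The second was lost without each library but ventral 3, with adjusted p from 0.000179 to 0.0898. Contig comp16490_c0_seq1|m.7717 was not called (0.46, SE 0.16, adjusted p 0.0899) and was called by DESeq2 and without ventral 3, with adjusted p from 0.0221 to 0.256.

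Within the abundant contigs, coding length went with direction, but over contigs of every abundance it did so mainly at the longest lengths. Under 600 bases, 559 of 12187 contigs of any abundance were called higher in dorsal and 500 higher in ventral RPE. At 2-fold or more these became 192 and 439. At 2400 bases or more, 52 and 105 of 1272 were called. The median log2 fold change over contigs of any abundance was -0.03, 0.02, 0.0 and -0.06 from the shortest to the longest. In the highest abundance class, 659 contigs had coding lengths under 600 bases, and 204 of these were called higher in dorsal against 17 higher in ventral RPE. From 600 to under 1200 bases the numbers were 310 and 63 of 1310, and from 1200 to under 2400 bases 200 and 134 of 1924. At 2400 bases or more the order turned, with 49 dorsal and 92 ventral calls of 1130. The share called fell with length from 33.5% through 28.5 and 17.4% to 12.5%. The median log2 fold change over all contigs of a class, called or not, was 0.31, 0.22, 0.06 and -0.06. Under total-count scaling it was 0.13, 0.05, -0.11 and -0.23 by the same near-constant shift, which does not test the slope, with 121 dorsal and 31 ventral calls among the shortest. The 204 dorsal calls of the shortest class became 130 without dorsal 1, 134 without ventral 1 and 91 without ventral 2, and the 17 ventral calls became 8 without dorsal 1 and 9 without ventral 2.

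**Figure D3:**
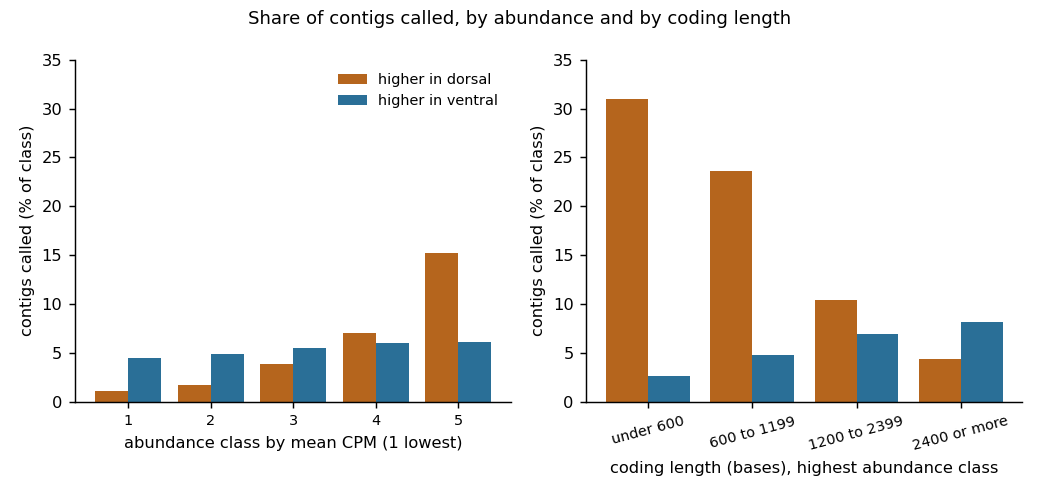
Bars give the contigs called as a percentage of their class, brown for higher in dorsal and blue for higher in ventral RPE, by abundance class, from the lowest to the highest mean CPM (left) and, within the highest class, by coding length in bases (right). Dorsal calls climb with abundance from 55 to 763 of 5023 contigs while ventral calls stay between 223 and 306, and within the highest class dorsal calls fall from 204 of 659 short contigs to 49 of 1130 long ones.

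The libraries of 1 region did not show this length pattern to the same degree. For each library the median deviation of its log2 CPM from the contig's mean over the 6 libraries was taken within each length class of the highest abundance class. In the shortest class it was 0.08, 0.13 and 0.26 in dorsal 1, 2 and 3 and -0.14, -0.18 and -0.16 in ventral 1, 2 and 3. In the longest class it was 0.02, 0.01 and -0.11 against -0.01, 0.06 and 0.04. Dorsal 3 thus had the steepest slope, and all 3 dorsal libraries lay above all 3 ventral ones in the shortest class. The short minus long difference was 0.05, 0.12 and 0.37 in dorsal 1, 2 and 3 against -0.13, -0.24 and -0.20 in ventral 1, 2 and 3. The means were 0.18 ± 0.17 and -0.19 ± 0.06, a difference of 0.37 log2 units without overlap (two-sided exact permutation p = 0.1, the smallest possible), and 0.28 without dorsal 3. The difference was 0.22 in the abundance class just below and 0.41 among components of 1 contig. The part of these library slopes in the calls by length was not tested.

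**Figure D4:**
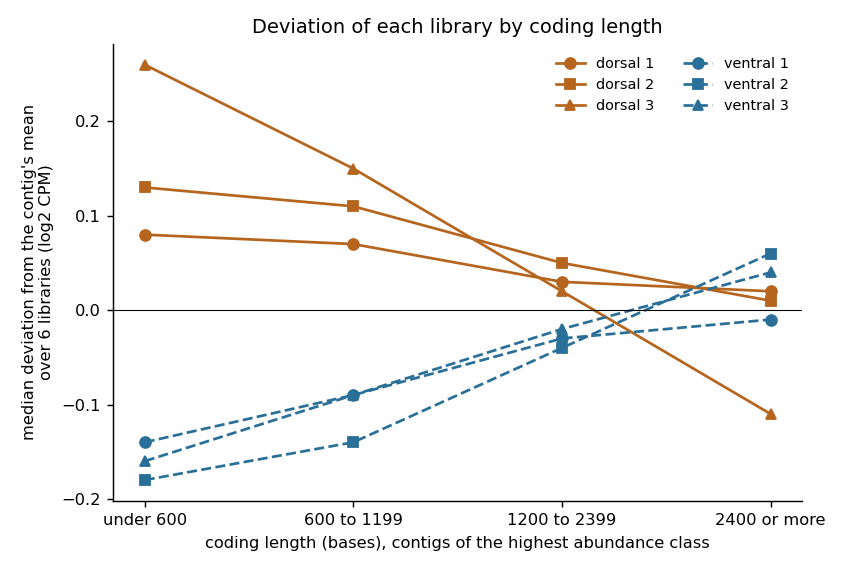
Lines follow each library's median deviation from the contig's mean log2 CPM over the 6 libraries, across 4 classes of coding length, for contigs of the highest abundance class. Dorsal libraries (solid, brown) start above 0 at short lengths and ventral ones (dashed, blue) below, the lines meet at longer lengths, and dorsal 3 falls the most, from 0.26 to -0.11.

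The extremes of length gave small and large differences alike. The 3 longest called contigs with a mean of at least 1 on the log2 CPM scale were comp26640_c0_seq1|m.18746 (8445 bases, log2 fold change 0.56, SE 0.16), comp21870_c0_seq2|m.13930 (6015 bases, -0.45, SE 0.11) and comp21506_c0_seq1|m.12994 (5985 bases, -0.40, SE 0.11). Their adjusted p-values of 0.048, 0.0258 and 0.0416 (edgeR quasi-likelihood) were near the threshold. Each call was lost under 5 or 6 of the 11 alternative fits, most of them fits without 1 library. The 3 shortest had 297 bases (99 codons). Contig comp30140_c0_seq1|m.20606 stood at 1.44, 1.17 and 0.916 CPM in dorsal and 3.74, 4.78 and 7.9 CPM in ventral libraries, with no overlap. Contigs comp39790_c0_seq1|m.24801 (log2 fold change -1.63, SE 0.32) and comp28378_c0_seq1|m.19741 (0.74, SE 0.16) had adjusted p of 0.0119 and 0.0197 by the same edgeR test, and these calls were lost without ventral 2 and, for the second, also without dorsal 1, without dorsal 2 and with total-count scaling.

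Where 2 or more contigs of 1 component were called, they were called on the same side. Of 2108 components with 2 or more contigs, 367 held at least 1 called contig and 191 held 2 or more. In 104 of those 191 all calls were higher in dorsal and in 87 all were higher in ventral RPE, and none had calls on both sides. The quasi-likelihood count of 0 with both sides was also 0 with DESeq2 and with the authors' deposited calls, 5 at an unadjusted p under 0.05 (which 26% of all contigs pass), and 1 with total-count scaling. Every contig was called in 155 of the 367 components with any call, and a single contig was called in 176. The 191 became 70 without dorsal 1, 119 without dorsal 3, 104 without ventral 1 and 60 without ventral 2. Contigs of a component can share sequence and reads, so they are not independent measurements. The share called was 11.6% for contigs of such components and 11% for contigs alone in theirs.

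Closeness grew with level and with likeness of length. Over all 6457 pairs of contigs of 1 component, the 2 log2 fold changes differed by a median of 0.17 and by over 1 in 119 pairs (1.8%). Over the 1471 pairs of reading frames on the same transcript the median was 0.20. Where both contigs had at least 10 CPM, it was 0.14 for 421 pairs on the same transcript and 0.10 for 1475 pairs on different transcripts. Among the latter, 240 pairs of equal coding length differed by a median of 0.06, with none over 1. Their fold changes had a Pearson's r of 0.99, which describes pairs that share libraries and may share reads. All 300 pairs with both contigs called had the same sign, which follows from no component having calls on both sides. The 772 pairs with at least 1 contig called include these 300, and 711 of the 772 (92.1%) had the same sign. Of the 531 such pairs on different transcripts, 478 (90.0%) had the same sign.

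Counts of each component were also summed before the test. Of 22031 components 2542 were called (11.5%), 1319 (5.99%) higher in dorsal and 1223 (5.55%) higher in ventral RPE by edgeR's quasi-likelihood test. As 19923 of these components hold 1 contig, whose sum is the contig itself, closeness to the shares of contigs was largely fixed in advance. Of the 2108 components of 2 or more contigs, 335 were called by their sum. Of these, 311 were also called by at least 1 contig, always in the same direction, and 24 by the sum alone. The sum contains the counts of the called contig, so a change of direction could hardly occur. Another 56 components were called by a contig alone. The 2542 became 1037 without dorsal 1, 1676 without dorsal 3, 1606 without ventral 1 and 888 without ventral 2.

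Of the 5 components with the most contigs called on 1 side, all but comp19427_c0 were higher in dorsal RPE. Ties in the number of calls were broken by name. Over all 191 components with 2 or more calls the sides were nearer, at 104 dorsal and 87 ventral. In comp20841_c0, 6 of 7 contigs were called, and these were 897 or 1041 bases long with log2 fold changes from 0.81 to 0.95. The most changed, comp20841_c0_seq4|m.11896, was at 34.9, 44.8 and 44.2 CPM in dorsal and 24.3, 21.9 and 18.0 CPM in ventral libraries. The other frame on that same transcript, comp20841_c0_seq4|m.11897 (396 bases), was far lower, at 2.90 ± 0.264 against 2.27 ± 0.296 CPM, and was not called. In comp17245_c0 all 4 contigs were called, with log2 fold changes from 1.18 to 1.45, and the call of comp17245_c0_seq2|m.8363 was lost without ventral 2 (adjusted p 0.000354 to 0.0544 over the alternatives, edgeR and DESeq2). Its 2 long frames stood at 39.1 ± 0.855 against 14.9 ± 2.6 CPM (comp17245_c0_seq2|m.8362) and 44.8 ± 1.0 against 18.3 ± 3.67 CPM (comp17245_c0_seq1|m.8360), and its 2 frames of 330 bases at 12.7 to 14.1 CPM in dorsal and 5.19 to 5.63 CPM in ventral RPE on average.

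Among the components chosen in this way, the scarcer comp21424_c0 and comp19427_c0 had the largest summed differences. They were chosen by their calls, so this does not describe scarce components in general. In comp21424_c0 all 5 contigs were called higher in dorsal RPE, with log2 fold changes from 1.35 to 2.39. In each of them dorsal 2 was the highest library, as in comp21424_c0_seq9|m.12821 at 2.41, 7.8 and 4.46 CPM in dorsal and 0.78, 0.907 and 1.14 CPM in ventral libraries. Calls of 4 of the 5 were lost without 1 library or another, and 2 of them without dorsal 2. In comp19427_c0 all 4 contigs were called higher in ventral RPE, with log2 fold changes from -2.67 to -1.85. Among these, comp19427_c0_seq1|m.10015 was below 1 CPM in every dorsal library. Only its ventral libraries could bring it into the table, so its lack of overlap was fixed in advance. Calls of 2 of the 4 were lost in fits without 1 library. Its highest contig, comp19427_c0_seq2|m.10019 (1134 bases), was at 1.81, 2.05 and 0.687 CPM in dorsal and 10.9, 12.1 and 6.19 CPM in ventral libraries. Ventral 3 was the lowest ventral library in all 4 contigs. The summed log2 fold change was -2.36 (SE 0.32) with an adjusted p of 0.0031 (edgeR quasi-likelihood).

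A few components held contigs whose dorsal-ventral differences were unequal. An F test of equal response within a component (diffSpliceDGE in edgeR) called 9 of 2108 components (0.427%) at an adjusted p under 0.05. The count was 9 with limma's diffSplice, and it became 5 without dorsal 1, 4 without ventral 2 and 5 without ventral 3.

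The clearest was comp19478_c0, with an adjusted p of 1.79e-06 in that edgeR test. Of its 4 contigs only comp19478_c0_seq3|m.10089 (828 bases) was called, at 2.05, 2.73 and 3.78 CPM in dorsal and 18.3, 20.1 and 17.9 CPM in ventral libraries. It was low in all dorsal libraries and its log2 fold change was -2.71 (SE 0.21). The other forms, of 840, 852 and 1191 bases, were not called, at log2 fold changes of 0.22 (SE 0.18), 0.10 (SE 0.17) and -0.44 (SE 0.18). This form took 6.01, 7.29 and 9.88% of the component's counts in dorsal and 33.8, 32.7 and 36.2% in ventral libraries. The component's summed log2 fold change was -0.59 (SE 0.12, adjusted p 0.0136, edgeR quasi-likelihood).

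In comp16390_c0 the split ran between short and long frames on the same transcripts. The 2 frames of 312 bases were higher in dorsal RPE, with comp16390_c0_seq1|m.7610 at 6.86, 9.26 and 8.01 CPM against 3.28, 2.31 and 3.05 CPM and comp16390_c0_seq2|m.7613 at 8.02 ± 1.0 against 3.22 ± 0.235 CPM. Their log2 fold changes were 1.48 (SE 0.21) and 1.31 (SE 0.19). The long frames, of 978 and 1014 bases, were not called, at 61.8 ± 8.31 against 59.0 ± 3.05 CPM (comp16390_c0_seq1|m.7608) and 65.0 ± 6.79 against 58.9 ± 3.76 CPM (comp16390_c0_seq2|m.7611). The adjusted p of unequal response was 4.66e-05 (edgeR diffSpliceDGE), and the summed counts were not called.

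Component comp22045_c0 held an unequal pair of frames on 1 transcript at high level. Frame comp22045_c0_seq1|m.14395 (1536 bases) was at 83.0, 74.6 and 69.5 CPM in dorsal and 371, 264 and 247 CPM in ventral libraries, with a log2 fold change of -1.96 (SE 0.17). Frame comp22045_c0_seq1|m.14394 (1875 bases) was at 688, 597 and 954 CPM against 819, 943 and 1102 CPM, with overlap and a log2 fold change of -0.36 (SE 0.19). The first was far apart between regions and the second was not called. The adjusted p of unequal response was 0.00218 (edgeR diffSpliceDGE). The files do not give the frames' positions or strands on the transcript.

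In comp21316_c0 long forms differed from each other. Forms of 5694 and 5709 bases were higher in ventral RPE, with comp21316_c0_seq1|m.12605 at 41.7, 42.1 and 42.1 CPM in dorsal and 69.0, 77.1 and 68.5 CPM in ventral libraries. The third long form, comp21316_c0_seq2|m.12606 (5670 bases), was more abundant and was not called, at 172 ± 24.8 against 193 ± 3.73 CPM. The log2 fold changes of the 2 called forms were -0.77 (SE 0.11) and -0.69 (SE 0.12). The short frames of 594 bases were not called, at 0.42 (SE 0.19) and 0.30 (SE 0.19) on the log2 scale. In comp20572_c0 the contrast lay again between short and long frames. The 4 short frames, of 348 or 420 bases, had log2 fold changes from -2.18 to -1.47 with 3 of 4 called, at dorsal means under 1 CPM. Of these calls 2 were lost in fits without 1 library. All 3 called short frames were below 1 CPM in every dorsal library, so only their ventral libraries could bring them into the table. That their libraries do not overlap was thus fixed in advance. The 4 long ones, of 1134 to 1188 bases, ran from -0.51 to -0.38 and none was called under TMM scaling.

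Component comp21987_c0 was also unequal (adjusted p 0.025, edgeR diffSpliceDGE), and it combined 5 transcripts with 14 frames. Its summed counts were not called (log2 fold change 0.42, SE 0.13, adjusted p 0.0637, edgeR quasi-likelihood). The 5 frames of 474 bases had log2 fold changes from 0.81 to 0.99 and were all called higher in dorsal RPE. Frames of 954 bases ran from 0.24 to 0.52 with 1 of 5 called, and frames of 1113 bases from 0.06 to 0.28 with none called. On each of the 4 transcripts with all 3 lengths the fold change was largest in the shortest frame and smallest in the longest. These transcripts belong to 1 component and can share sequence and reads, so they are not 4 separate observations. Calls of 4 of the 6 called frames were lost in fits without 1 library, and 1 of these also with total-count scaling. The components comp21503_c0, comp22133_c0 and comp21978_c0 complete the 9, with log2 fold changes from -1.54 to 0.22, from -0.01 to 0.91 and from -0.02 to 0.72 among their contigs.

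**Figure D5:**
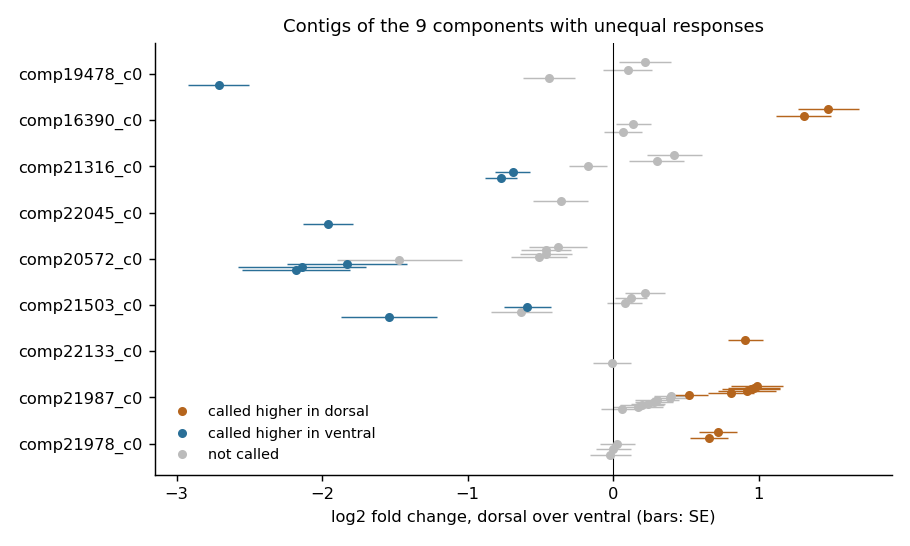
Each point is a contig's log2 fold change, dorsal over ventral, with its SE as a bar, for the 9 components with an unequal response, in order of p from the top. Coloured points were called and grey ones were not, and coloured points of 1 component all lie on the same side of 0, as in comp19478_c0 where 1 contig at -2.71 stands apart from 3 between -0.44 and 0.22.

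The authors' deposited table marks 3297 contigs (13.1%), 1555 higher in dorsal and 1742 higher in ventral RPE. Of these marks 2681 were also quasi-likelihood calls, which is 81.3% of the authors' marks and 95.7% of the calls, and none pointed the other way. Both lists come from edgeR on the same counts, so a difference in direction could hardly occur.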

How the data were processed

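RNA was measured in 3 dorsal and 3 ventral bullfrog RPE libraries. The authors deposited 1 table with raw counts per contig for each library, in which commas separate groups of digits; the commas were removed before use, from 4.38 to 6.45% of the values of a library. The same deposited table gives per-library values read here as a score, since they are RPKM rounded to whole numbers (96.95% were within 0.51 of the RPKM computed from the counts), and the authors' mean RPKM per region, log2 fold change, log2 CPM and p-value for each contig. Bowtie 0.12.7 and edgeR are named in the submitters' processing notes. The assembler, the strand setting and the treatment of reads that match several contigs are not given in the sources used here, so counts of contigs that share sequence are uncertain. Counts of PCR reads are not independent molecules, so intervals from counts cover counting error only.

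Counts were tested with edgeR 4.0.16 (quasi-likelihood fit, TMM scaling, region as the only term, Benjamini-Hochberg adjustment over all contigs, calls at 0.05), in R 4.3.3. Fold changes are fitted, with the SE from the F statistic. CPM values are TMM-scaled, log2 CPM uses a prior count of 2, and RPKM is CPM per kilobase of coding length. Shares of counts are of raw counts. Counts were also summed per component, and contigs of a component were compared with diffSpliceDGE. Shares were tested with exact permutation tests over libraries (SciPy 1.17.1). Alternatives were other scalings, DESeq2 1.42.0, limma 3.58.1, no filter, at least 5 CPM in 3 libraries, an adjusted p under 0.01, each library left out in turn, a block for the replicate number, the authors' deposited calls and other groupings of contigs. Those on short contigs and on the length contrast were chosen after seeing the data. The scripts were tested on simulated data.

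Contigs were named by rule. The rule took the 10 smallest p-values on each side among non-overlapping calls that average 1 or more on the log2 CPM scale, the 5 largest fold changes on each side among calls, the 10 most abundant, and the 3 longest and 3 shortest calls. It also took the 5 components with the most calls on 1 side and the 5 with the smallest p of unequal response. The contigs, classes and tests were chosen with earlier results of these data known. The numbers 1 to 3 were not treated as pairs.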

Additional observations from a re-analysis of the deposited data

How the results depend on the processing

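Every contig passed the filter on low counts, so leaving the filter out changed nothing and is not counted as an alternative here. Of 168 values recomputed, 115 were taken as unchanged and 53 as moved. Counts had to stay within 1.5 times, class medians within 1 SD and percentages called within the exact 95% interval. Differences in the share of counts and in the length contrast only had to keep their sign, so some changed more. The share difference of the 10 most abundant contigs, 0.98 percentage points, was 0.41 without ventral 2. The length contrast of 0.37 was 0.22 in the abundance class just below. Total-count scaling gave 758 dorsal, 2456 ventral and 208 dorsal 2-fold calls, 1 component with calls on both sides, and 121 dorsal and 31 ventral calls among short abundant contigs. A filter of 5 CPM left 153 dorsal and 455 ventral 2-fold calls. An adjusted p under 0.01 gave 825 calls (440 dorsal, 385 ventral), 171 and 337 at 2-fold, 744 summed components, 5 unequal components, 51 components on 1 side, and 81 dorsal and 8 ventral short abundant contigs. Ranking per coding length gave 22.8% called and a median of 0.15 in the highest abundance class and 6.3% called in the lowest. Leaving out 1 library gave 991 to 2765 calls, 500 to 1220 dorsal, 464 to 1545 ventral, 195 to 362 dorsal and 392 to 1077 ventral at 2-fold, 888 to 2494 summed components, 4 to 12 unequal components, 60 to 205 components on 1 side, 0 on both sides, and 91 to 181 dorsal and 8 to 22 ventral short abundant contigs. In these fits each region keeps at least 2 libraries. The replicate number as a block gave 3634 calls (1817 on each side) and 2 components with calls on both sides. Same-numbered libraries deviated from their group means with correlations of -0.05, 0.31 and 0.22. Dorsal and ventral libraries of different number had correlations from -0.30 to 0.07. The numbers were not taken as pairs because the labels do not say that they are, and pairing was not tested. Among 99 named contigs 71 were called. At a threshold of 0.05, 49 kept their call under every alternative fit that gave a value and 22 lost it under at least 1. The threshold of 0.01 was not applied to named contigs. Not all of the 49 pass it, as comp22204_c0_seq1|m.15197 does not (adjusted p 0.0106, edgeR quasi-likelihood). Among contigs that were not called, 8 values changed sign. These were comp21987_c0_seq2|m.14233 (-0.11 with total-count scaling, -0.02 without ventral 1 or ventral 2, up to 0.21 without ventral 3), comp19478_c0_seq2|m.10087 (-0.07 with total-count scaling, -0.04 without dorsal 3, up to 0.18 without dorsal 1), comp16390_c0_seq2|m.7611 (-0.03 with total-count scaling) and comp16390_c0_seq1|m.7608 (-0.11 with total-count scaling, -0.04 without dorsal 3, up to 0.15 without dorsal 2). Causes were not tested beyond what an alternative removes. With 3 libraries a region, an exact test cannot go below p = 0.1, and the lowest abundance class, at a median of 1.42 CPM, held no call of less than 2-fold.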
